A study of Drosophila melanogaster with 2 samples.

Results

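The hairpins described here are the miRNA precursors that carry the highest catalogue numbers in the deposited tables. A member was any hairpin named dme-mir- numbered from mir-2279 upwards, whatever its suffix. Read counts are not part of that rule, but it was set with earlier results of these data known. There were 87 members among the 235 hairpins listed in at least 1 of the libraries (37.0%). The study counted small RNAs of 18 to 30 nt in ovaries of Drosophila melanogaster females aged 3 to 5 days. One library came from peloPB60/1 ovaries, which carry the PB60 allele of pelo (pelota) over allele 1, and one from pelo1/+ ovaries, which carry allele 1 over a normal copy, so allele 1 is common to both. pelo encodes a factor that rescues stalled ribosomes and is needed in the female germline. Each genotype had 1 library, so nothing below has a replicate check, no p-value is given, and all intervals are 95% intervals for counting error only.

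A miRNA is cut from one arm of a hairpin-shaped precursor and guides an Argonaute protein to mRNAs that pair with its seed. Most conserved hairpins come from primary transcripts of their own or from long introns and are cut first by Drosha and then by Dicer. Mirtrons are another class, in which the hairpin is a whole short intron released by splicing. Hairpins found by deep sequencing after the conserved ones were catalogued are often restricted to few species, and many give few reads. The tables count hairpins, so the 2 arms of a hairpin, and any fragments of a longer transcript that match it, share 1 value and cannot be told apart.

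The miRNA tables held 1999224 reads in peloPB60/1 and 1819781 reads in pelo1/+, so 1 read was worth 0.50 CPM in peloPB60/1 and 0.550 CPM in pelo1/+ (CPM, reads per 1000000 reads of the miRNA table). Ovary-linked miRNAs were well represented. The 3 follicle cell markers listed for the tissue (mir-989, mir-318 and mir-994) held 45.9% of the reads in peloPB60/1 and 26.9% in pelo1/+, and the 5 female germline markers (mir-184 and mir-310 to mir-313) held 4.15% in peloPB60/1 and 5.51% in pelo1/+. These sums hide markers that went opposite ways. mir-989 was 2.55-fold higher in peloPB60/1, mir-318 had 17818 reads in peloPB60/1 and 16837 in pelo1/+, and mir-994 was 12.9-fold lower in peloPB60/1. In the germline list mir-184 was 1.14-fold higher in peloPB60/1, and mir-310 to mir-313 were 2.32-fold to 7.54-fold lower. The muscle sheath pair mir-1 and mir-133 held 0.691% in peloPB60/1 and 0.222% in pelo1/+, nearly all from mir-1 (13793 reads in peloPB60/1 and 4037 in pelo1/+), since mir-133 had 12 reads in each. The 3 neuronal markers mir-124, mir-137 and mir-219 held 60 reads in peloPB60/1 and 38 in pelo1/+. None of the 13 markers was at 0 in either library. Their part in the values of the late-catalogued hairpins was not tested.

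Nearly all members were seen, most of them with few reads. With at least 1 read counted as detection, 87 of 87 were detected in peloPB60/1 and 86 of 87 in pelo1/+. The exception was mir-4979, with 8 reads in peloPB60/1 and 0 in pelo1/+. A count of 0 allows up to 3 reads, and set against that floor the 8 reads are at least 2.43-fold higher in peloPB60/1. That bound leaves out the counting error of the 8 reads, and the interval of the log2 ratio starts lower, at 0.64. The median member had 13 reads (6.50 CPM) in peloPB60/1 and 15 reads (8.24 CPM) in pelo1/+. The 82 hairpins with no number or a number up to mir-399, catalogued first, had a median of 352.5 reads in peloPB60/1 and 261.5 in pelo1/+. The 66 from mir-900 to mir-1099 had a median of 18 reads in peloPB60/1 and 22.5 in pelo1/+. The medians of the members and of the mir-900 to mir-1099 class lay close together, and both lay far below that of the first-catalogued class. Of the members 1 had at least 1000 summed reads over both libraries, 5 had 100 to 999, 12 had 50 to 99, 61 had 10 to 49 and 8 had fewer than 10. At least 1000 summed reads were reached by 43 of the 82 first-catalogued hairpins and by 9 of the 66 from mir-900 to mir-1099.

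**Figure D1:**
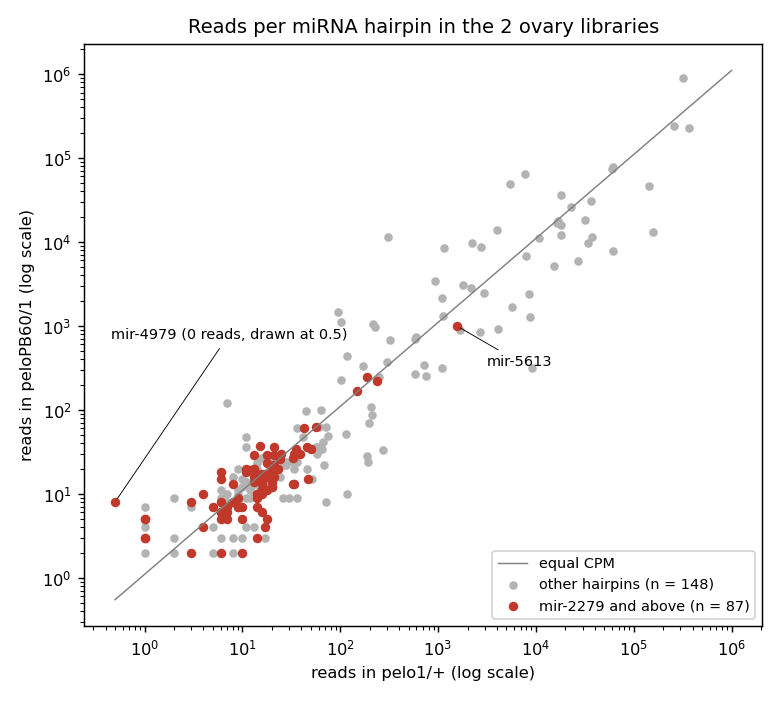
Reads of each of the 235 hairpins in peloPB60/1 (vertical axis) and pelo1/+ (horizontal axis), both on log scales, with 1 point per hairpin and a line at equal CPM. The 87 members in red lie mostly below 100 reads in each library, with mir-5613 (990 reads in peloPB60/1 and 1571 in pelo1/+) apart from them. mir-4979, with 0 reads in pelo1/+, is drawn at 0.5.

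Together the members took a very small share of the miRNA reads. They held 2888 reads in peloPB60/1, which is 0.144% of the table (interval 0.139% to 0.150%), and 3482 reads in pelo1/+, which is 0.191% (0.185% to 0.198%). The pooled ratio of peloPB60/1 over pelo1/+ was 0.755 (0.718 to 0.793). In whole ovaries, fewer cells of a type and less RNA per cell cannot be told apart. Most of that difference came from 1 hairpin, mir-5613, which held 34.3% of the members' reads in peloPB60/1 and 45.1% in pelo1/+. The other 86 members had almost the same number of reads in both libraries, 1898 in peloPB60/1 and 1911 in pelo1/+, and a pooled ratio of 0.904 (0.848 to 0.964). The direction of the pool also depended on the scaling, because mir-989 alone took 886701 reads in peloPB60/1 and 316447 in pelo1/+. When mir-989 was not counted in the totals, the pooled ratio was 1.12 (1.07 to 1.18) for all members and 1.34 (1.26 to 1.43) without mir-5613. With edgeR's TMM factors, which centre on the bulk of hairpins, it was 0.899 with and 1.08 without mir-5613. DESeq2's median-of-ratios factors gave 0.883 with and 1.06 without it. A change of scaling moves all pools by the same factor, so it does not alter their order. With the miRNA total the 148 hairpins of lower number had a pooled ratio of 1.00, above that of the members. They held 99.86% of that total in peloPB60/1 and 99.81% in pelo1/+, so their ratio is near 1.00 by construction. That pool is also carried by mir-989. The other 147 had 1109635 reads in peloPB60/1 and 1499852 in pelo1/+, a ratio of 0.673, which lies below the members' 0.755. The order of the members and the other hairpins therefore depends on 1 hairpin of lower number, a comparison chosen after seeing the data.

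**Figure D2:**
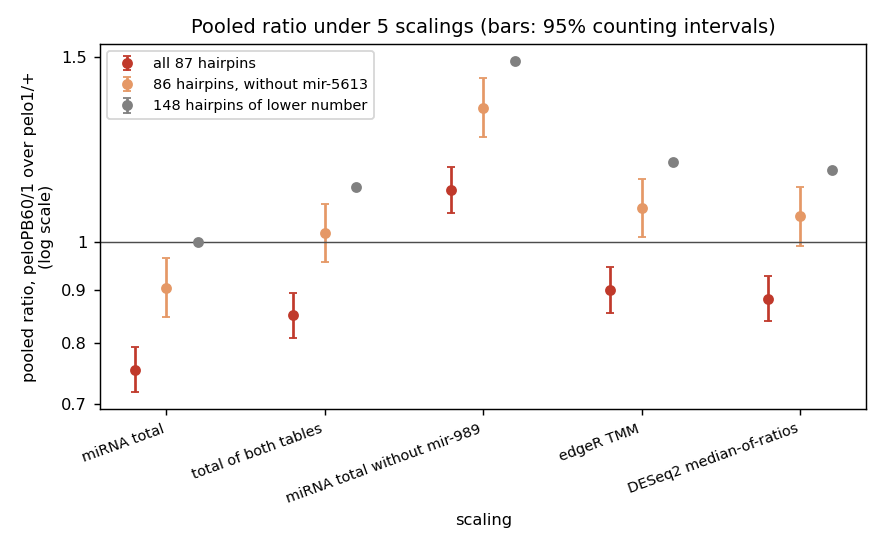
Pooled ratio of peloPB60/1 over pelo1/+ (log scale) for all 87 members, for the 86 without mir-5613 and for the 148 hairpins of lower number (mir-989 included), under 5 scalings, with 95% counting intervals. The ratio of all members runs from 0.755 with the miRNA total to 1.12 without mir-989, and the 86 members lie nearer to 1 than all 87 except in that last scaling.

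A few members were abundant enough in ovaries to be compared singly. mir-5613 had 990 reads (495.2 CPM) in peloPB60/1 and 1571 reads (863.3 CPM) in pelo1/+. It ranked 42 of 235 hairpins in peloPB60/1 and 38 in pelo1/+, so the description of the members as rare does not hold for it. It was 1.74-fold lower in peloPB60/1 (log2 ratio -0.80, interval -0.92 to -0.69), short of 2-fold, and its log2 ratio was -0.55 with TMM and -0.23 without mir-989. Neither mir-5613 nor mir-5614 (20 reads in peloPB60/1 and 11 in pelo1/+) was matched to a gene of the annotation used here, so no position is given for them.

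The next 3 members lie inside introns of protein-coding genes, in the direction of the host. mir-4968, on 3L in an intron of Mob2, which encodes a kinase adaptor of the Mob family, had 218 reads (109.0 CPM) in peloPB60/1 and 238 reads (130.8 CPM) in pelo1/+. mir-2491, on X in an intron of fog, the gene of a secreted signal for cell shape change in gastrulation, had 244 reads (122.0 CPM) in peloPB60/1 and 188 reads (103.3 CPM) in pelo1/+. For an intronic miRNA the primary transcript is normally that of the host. mir-4984, on 2L in an intron of PAPLA1, a phospholipase gene, had 167 reads (83.5 CPM) in peloPB60/1 and 148 reads (81.3 CPM) in pelo1/+. Their log2 ratios were -0.26, 0.24 and 0.04 in that order, and with the miRNA total each interval included no difference. The interval of mir-2491 lay above no difference under each of the 4 other scalings, with log2 ratios of 0.41 to 0.81. When mir-989 was not counted, mir-4968 (0.31) and mir-4984 (0.61) were also higher in peloPB60/1 beyond counting error. The intervals reached down to -0.53 for mir-4968 and up to 0.52 for mir-2491. With mir-5613 these hairpins made up 56.1% of the members' reads in peloPB60/1 and 61.6% in pelo1/+. Per 100 nt of annotated hairpin, mir-2491, mir-4968 and mir-4984 had 300.0, 294.2 and 256.1 summed reads, and the next member, mir-4913, had 110.3.

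**Figure D3:**
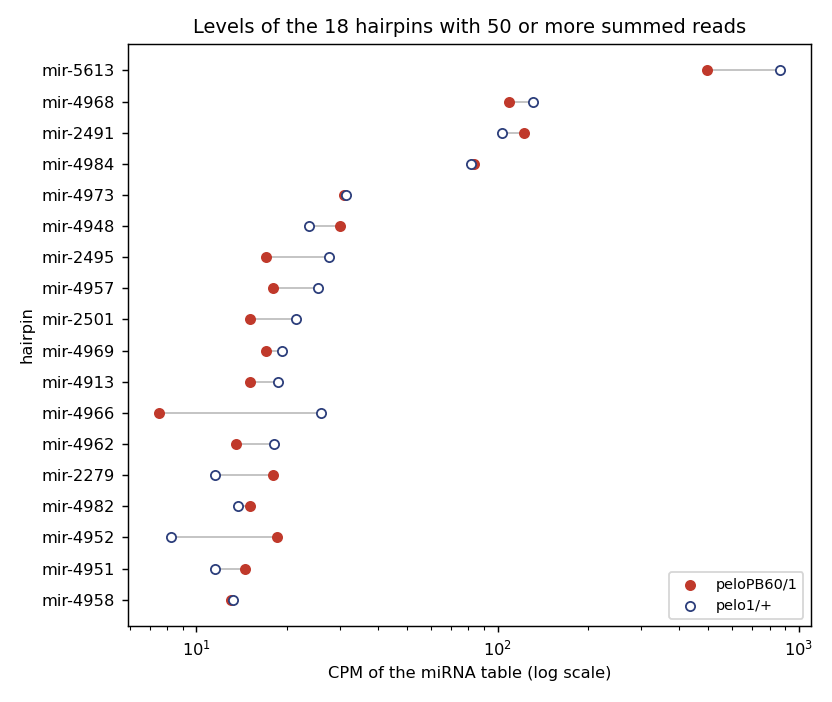
CPM of the 18 members with at least 50 summed reads in peloPB60/1 (filled) and pelo1/+ (open), on a log scale, 1 library each. mir-5613 leads at 495.2 CPM in peloPB60/1 and 863.3 CPM in pelo1/+, 3 members lie near 100 CPM, and the other 14 lie at or below 31.3 CPM in both libraries.

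Another 14 members had 50 to 119 summed reads. mir-4973, on 2L in an exon of the long noncoding RNA lncRNA:CR45347, had 62 reads in peloPB60/1 and 57 in pelo1/+. mir-4948, on 3R opposite the alkaline phosphatase gene Alp4, had 60 reads in peloPB60/1 and 43 in pelo1/+. With log2 ratios of -0.02 and 0.34, neither differed beyond counting error with the miRNA total. The interval of mir-4948 lay above no difference with TMM, and those of both did when mir-989 was not counted. mir-2495, on 2L in an exon of qtc, had 34 reads in peloPB60/1 and 50 in pelo1/+, a log2 ratio of -0.68 whose interval (-1.37 to -0.04) excluded no difference although it was under 2-fold. Under each of the 4 other scalings, with log2 ratios of -0.51 to -0.12, that interval included no difference. mir-4957, on X opposite the topoisomerase gene Top1, had 36 reads in peloPB60/1 and 46 in pelo1/+. mir-2501 and mir-4913, which each span a whole intron (of Nulp1 and of Culd, both on 3L), had 30 reads each in peloPB60/1 and 39 and 34 reads in pelo1/+. The log2 ratios of mir-4957, mir-2501 and mir-4913 were -0.48, -0.51 and -0.31, with intervals that included no difference.

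Introns also hold mir-4969 (3R, in CASK, a scaffold protein gene), mir-4962 (X, in Tlk, a chromatin-linked kinase gene), mir-2279 (2R, in MFS17, a gene of the major facilitator transporters) and mir-4982 (2R, in Hs3st-A, a heparan sulfate sulfotransferase gene). Their reads were 34, 27, 36 and 30 in peloPB60/1 and 35, 33, 21 and 25 in pelo1/+. The log2 ratios ran from -0.42 for mir-4962 to 0.63 for mir-2279, all with intervals that included no difference. The interval of mir-2279 lay above no difference with TMM and with median-of-ratios factors. When mir-989 was not counted in the totals, mir-2279 passed the 2-fold rule, at a log2 ratio of 1.20. mir-4951, in an exon of the heat-shock-induced noncoding RNA lncRNA:Hsromega on 3R, had 29 reads in peloPB60/1 and 21 in pelo1/+ (log2 ratio 0.32), and its interval lay above no difference when mir-989 was not counted. mir-4958, in an exon of Tob on X, had 26 reads in peloPB60/1 and 24 in pelo1/+ (log2 ratio -0.02).

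Only mir-4966 and mir-4952 were called, where a call means a difference of at least 2-fold with an interval that excludes no difference among hairpins with at least 50 summed reads. mir-4966 had 15 reads (7.50 CPM) in peloPB60/1 and 47 reads (25.8 CPM) in pelo1/+, 3.37-fold lower in peloPB60/1 (log2 ratio -1.75, interval -2.73 to -0.92). The annotation holds a second copy beside it, mir-4966-2, whose reads cannot be told apart here. mir-4952, in an exon of Nrx-1, the neurexin gene of synaptic adhesion, on 3R, had 37 reads (18.5 CPM) in peloPB60/1 and 15 reads (8.24 CPM) in pelo1/+, 2.20-fold higher (log2 ratio 1.14, interval 0.27 to 2.14). Under the 5 scalings the log2 ratio of mir-4966 ran from -1.75 to -1.18 and that of mir-4952 from 1.14 to 1.71, and both remained called.

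**Figure D4:**
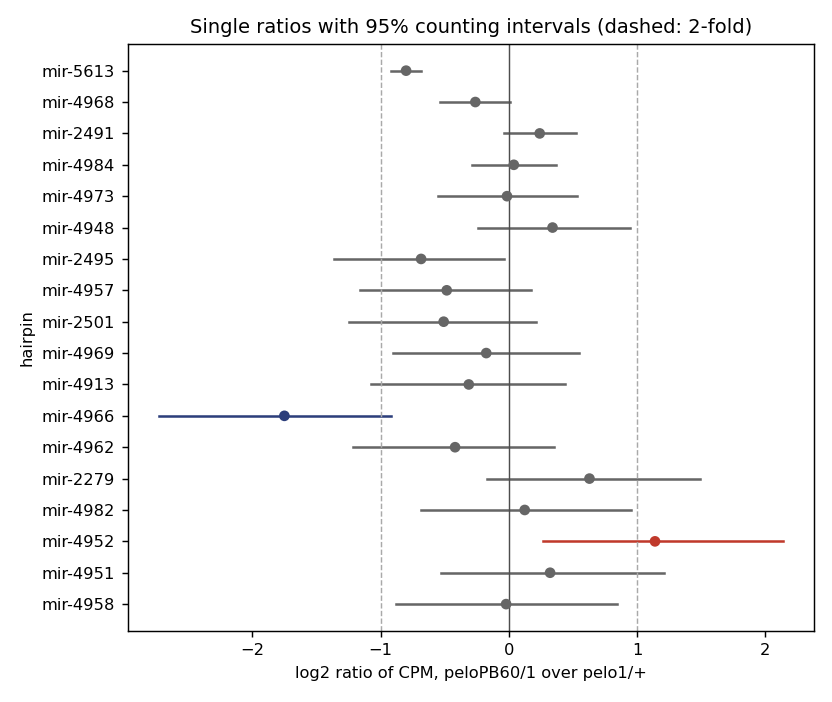
Log2 ratio of CPM, peloPB60/1 over pelo1/+, of the 18 members with at least 50 summed reads, with 95% counting intervals and dashed lines at 2-fold. mir-4966 (-1.75) and mir-4952 (1.14) are past 2-fold with intervals off 0, mir-5613 (-0.80) and mir-2495 (-0.68, with the miRNA total alone) exclude 0 within 2-fold, and the other 14 intervals include 0.

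With the miRNA total, most of the more abundant members lay close to equal levels in the 2 libraries. Of the 18 members past the count minimum, 2 were called (11.1%), against 51 of all 108 hairpins past it (47.2%), of which 17 were higher (15.7%) and 34 lower (31.5%). The SD of the log2 ratios was 0.63 over the 18 members and 1.82 over the 90 hairpins of lower number, and 13 of 18 and 23 of 90 were within 1.5-fold. Abundance differs between these classes, and few reads give wide intervals. Among hairpins with 10 to 99 summed reads, 10 of 73 members (13.7%) and 14 of 67 hairpins of lower number (20.9%) passed the same rule, with SDs of 0.78 and 0.98. In that range the classes lay closer together than past the count minimum, and the difference between them was not tested. The median log2 ratio was -0.14 over all 87 members and -0.26 over the 148 other hairpins, both relative to a total that mir-989 dominates.

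Below 50 summed reads, 69 members held 783 reads in peloPB60/1 and 847 in pelo1/+, a pooled ratio of 0.842 (0.763 to 0.928) that was 1.00 with TMM. The highest sum among them, 47 reads, was shared by mir-4917 and mir-4976. mir-4917, on X, had 29 reads in peloPB60/1 and 18 in pelo1/+ (log2 ratio 0.538, interval -0.345 to 1.487). Only when mir-989 was not counted did its interval lie above no difference. mir-4917 spans an intron of yl, the gene of the oocyte receptor that takes up yolk protein. mir-4976, opposite the gene CG15236, had 13 reads in peloPB60/1 and 34 in pelo1/+ (log2 ratio -1.49, interval -2.57 to -0.56). mir-4949, in an exon of ATPsynC, a gene of the mitochondrial ATP synthase, had 13 reads in peloPB60/1 and 33 in pelo1/+ (-1.45, interval -2.53 to -0.52). Both were lower in peloPB60/1 beyond counting error, except when mir-989 was not counted. mir-4956, in an exon of Sxl, the master switch of female development, had 29 reads in peloPB60/1 and 13 in pelo1/+ (log2 ratio 0.99, interval 0.03 to 2.09). mir-4971, in an exon of msl-2, the male dosage compensation gene that Sxl represses in females, had 20 reads in peloPB60/1 and 23 in pelo1/+ (-0.33, interval -1.28 to 0.59).

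The other 15 of the 20 most abundant members in this range had intervals that included no difference. mir-4945, mir-4960 and mir-4959 had 22, 23 and 20 reads in peloPB60/1 and 21, 18 and 20 in pelo1/+. mir-4939, mir-4942, mir-4944 and mir-4955 had 16, 16, 14 and 17 reads in peloPB60/1 and 21, 20, 20 and 17 in pelo1/+. All 7 lay between 14 and 23 reads in both libraries. mir-2496, mir-4970, mir-4978 and mir-4986 had 16, 16, 20 and 20 reads in peloPB60/1 and 17, 17, 13 and 13 in pelo1/+. mir-4987, mir-2282, mir-4974 and mir-2493 had 17, 12, 12 and 19 reads in peloPB60/1 and 16, 20, 20 and 12 in pelo1/+.

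A further 35 members with 10 to 49 summed reads had 5 to 20 reads in peloPB60/1 and 3 to 18 in pelo1/+, and all of their intervals included no difference with the miRNA total. When mir-989 was not counted, those of mir-4972 and mir-5614 lay above it. Together they held 349 reads in peloPB60/1 and 363 in pelo1/+. They were mir-2280, mir-2281, mir-2490, mir-2492, mir-2497, mir-2499, mir-2500, mir-2535b, mir-3641, mir-3642, mir-3645, mir-4910, mir-4914, mir-4916, mir-4919, mir-4940, mir-4941, mir-4943, mir-4946, mir-4950, mir-4953, mir-4954, mir-4961, mir-4963, mir-4964, mir-4965, mir-4967, mir-4972, mir-4975, mir-4977, mir-4980, mir-4981, mir-4983, mir-4985 and mir-5614. At the bottom, mir-2283, mir-3643, mir-3644, mir-4908, mir-4909, mir-4912 and mir-4918 had 2 to 5 reads in peloPB60/1 and 1 to 6 in pelo1/+. Their log2 ratios ran from -1.51 to 1.74.

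Lowering the count minimum to 10 summed reads admitted 79 members, of which 2 were called higher and 8 lower, in all 12.7%. Over all 219 hairpins at that minimum 29.7% were called, 8.68% higher and 21% lower. An interval off no difference, of whatever size, was found for 13 of the 79 members (16.5%), against 44.7% of the 219. The 219 include far more abundant hairpins, whose intervals are narrower. With 10 to 99 summed reads it was found for 12 of 73 members (16.4%) and 18 of 67 hairpins of lower number (26.9%). Of the 13 members 3 were higher and 10 lower. Other scalings gave other sets of members. With TMM 6 members were higher and 7 lower, and when mir-989 was not counted 13 were higher and 3 lower. The 219 hairpins had 34 higher and 64 lower with the miRNA total. They had 46 and 53 with TMM, and 61 and 38 when mir-989 was not counted. Besides those already given, the 6 members off no difference with the miRNA total were the following, named because of their values. mir-4947, in an intron of wat, had 18 reads in peloPB60/1 and 6 in pelo1/+ (log2 ratio 1.37). mir-2494, in part in an exon of CG17560, had 6 reads in peloPB60/1 and 16 in pelo1/+ (-1.48). mir-2489, in part in an exon of kuz, a metalloprotease gene of Notch signalling, had 3 reads in peloPB60/1 and 14 in pelo1/+ (-2.19). mir-4915 and mir-4911, which span introns of RhoGAP1A and ND-23, had 4 and 2 reads in peloPB60/1 and 17 and 10 in pelo1/+ (-2.10 and -2.21). These differences rest on at most 24 summed reads each, and only those of mir-4947 and mir-4915 had intervals off no difference under all 5 scalings. The remaining one, mir-2498, had 5 reads in peloPB60/1 and 18 in pelo1/+ (-1.89) and lies within 10000 bases of the germline-linked row mir-310 to mir-313 on the same strand of 2R.

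The 4 hairpins of that germline row had log2 ratios of -1.21, -2.91, -2.33 and -2.30 in the order of their numbers, while mir-991 and mir-992 beside them had 0.62 and -0.89. The interval of mir-2498, -3.77 to -0.50 from 23 reads, holds the values of mir-310 to mir-313 and of mir-992 but not that of mir-991. mir-2498 was named because its interval lay below no difference, so this comparison is no separate evidence that it follows its neighbours. When mir-989 was not counted, the interval of mir-2498 included no difference. mir-4966 and mir-2499 (11 reads in peloPB60/1 and 18 in pelo1/+, -0.82) lie in the X-linked row of mir-972 to mir-979, hairpins known mainly from testis. The 8 hairpins of that row had 7 to 15 reads in peloPB60/1 and 2 to 12 in pelo1/+, with log2 ratios from -0.62 to 1.79 whose intervals all included no difference. None of those 8 reached the count minimum of 50 summed reads, so they could not be called. mir-4969 and its neighbour mir-999 had log2 ratios of -0.18 and -1.26, and mir-2535b and mir-1007, in the same gene Abca3, had -0.48 and -0.24 from 7 and 13 reads in peloPB60/1 and 9 and 14 in pelo1/+.

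Where the members lie relative to other genes was taken from the annotation. These classes were defined after counts had been seen. Of the 87 members, 85 were matched, 84 by symbol and mir-4966 by a synonym. Of the members 20 (23.0%) spanned a whole intron, as mirtrons do, 27 (31.0%) lay inside a longer intron in the host's direction, 16 (18.4%) lay fully and 6 partly in an exon of an mRNA, 2 lay in an exon of a noncoding RNA, 7 lay only opposite a gene and 7 overlapped no other gene. Whole introns were represented by 0 of 82 first-catalogued hairpins and 14 of the 66 from mir-900 to mir-1099. Full mRNA exons held 4 of the 82 and 1 of the 66. By contrast 35 of the 82 first-catalogued hairpins lay in exons of noncoding RNAs, among them their own primary transcripts. On X lay 27.1% of the matched members, 8.54% of the first-catalogued hairpins and 27.7% of those from mir-900 to mir-1099.

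Counts differed between these positions. The 20 whole-intron members had a median of 14 summed reads (range 4 to 69), the 27 intronic ones 29 (6 to 456) and the 16 in mRNA exons 35 (17 to 84). The whole-intron hairpins are mir-2500, mir-2501, mir-2535b, mir-3641 to mir-3645 and mir-4908 to mir-4919. They are also the shortest, with a median annotated length of 68 nt against 107 nt for intronic and 115 nt for exonic members. Per 100 nt the medians were 20.02, 26.4 and 32.0 summed reads, so the order held with a smaller gap. Across the 85 matched members the summed reads and the annotated length had a Spearman correlation of 0.61, and members under 80 nt had a median of 12 reads against 32 for longer ones. These values describe the points and carry no test. The same correlation was -0.13 over the 82 first-catalogued hairpins and 0.28 over 65 of those from mir-900 to mir-1099. All points come from the same 2 libraries, and length goes with position class. Within classes the correlation was 0.76 over the 27 intronic members, 0.54 over the 20 whole-intron ones and 0.23 over the 16 in mRNA exons. Whether reads of exonic or intronic members come from the hairpin or from fragments of the host transcript was not tested. The counts hold no read positions for any class.

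**Figure D5:**
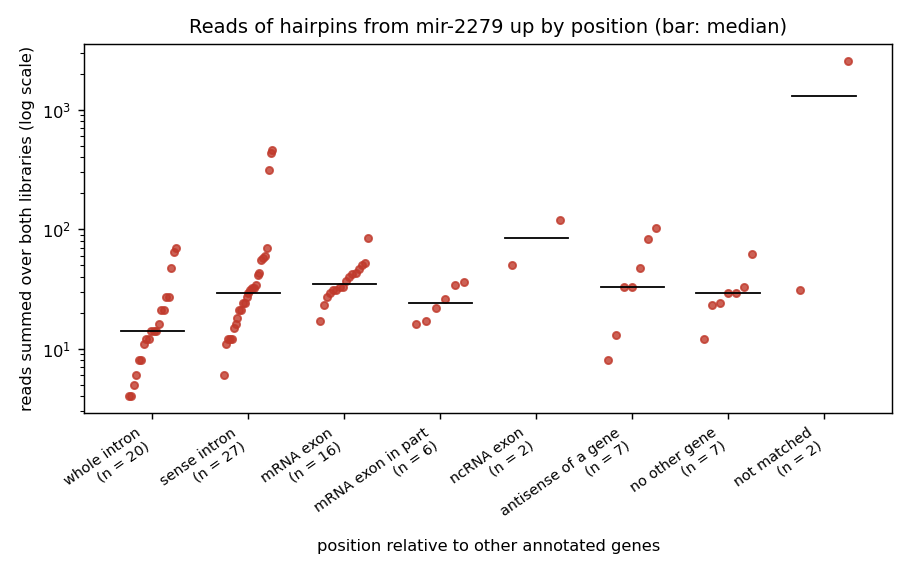
Reads summed over peloPB60/1 and pelo1/+ (log scale) of each member, grouped by position relative to other annotated genes, with a bar at the median. Whole-intron members have a median of 14 reads, intronic ones 29 and those in mRNA exons 35, and mir-5613, which was not matched, has 2561.

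No position class reached a 2-fold pooled difference. Whole-intron members held 192 reads in peloPB60/1 and 212 in pelo1/+, a pooled ratio of 0.824 (0.675 to 1.01). Intronic members held 985 reads in peloPB60/1 and 920 in pelo1/+, a ratio of 0.975 (0.890 to 1.07), and those in mRNA exons 311 reads in peloPB60/1 and 307 in pelo1/+, a ratio of 0.922 (0.785 to 1.08). With the miRNA total all 3 intervals included no difference. The intronic ratio was above 1 under the 4 other scalings, at 1.10 (1.00 to 1.20) with both tables, 1.16 (1.06 to 1.27) with TMM, 1.14 (1.04 to 1.25) with median-of-ratios factors and 1.45 (1.32 to 1.58) when mir-989 was not counted. In that last scaling whole-intron members were at 1.22 and those in mRNA exons at 1.37. Members partly in an mRNA exon were at 0.600 (0.426 to 0.841), from 60 reads in peloPB60/1 and 91 in pelo1/+. Those overlapping no other gene were at 0.552 (0.413 to 0.734), from 80 reads in peloPB60/1 and 132 in pelo1/+, of which mir-4966 made up 15 in peloPB60/1 and 47 in pelo1/+. When mir-989 was not counted these ratios were 0.891 (0.632 to 1.25) and 0.819 (0.613 to 1.09). The earlier mirtrons mir-1003 to mir-1016 offer a comparison for the whole-intron members. These 14 hairpins held 202 reads in peloPB60/1 and 461 in pelo1/+, a pooled ratio of 0.399 (0.336 to 0.472). The whole-intron members were at 0.824 (0.675 to 1.01). Both intervals leave out the spread between hairpins and between libraries, so they cannot decide whether the 2 lists differ. Much of the mirtron pool was mir-1013 (10 reads in peloPB60/1 and 117 in pelo1/+) and mir-1010 (52 and 114). The median log2 ratio of the 14 mirtrons was -0.77. The difference between the 2 lists was not tested. Of the 4 mirtrons past the count minimum, 3 were called lower, against 34 of all 108 hairpins past it (31.5%). The 17 listed hairpins of testis-linked clusters held 13932 reads in peloPB60/1 and 1028 in pelo1/+, a pooled ratio of 12.3. The largest part was mir-984 (11539 and 307 reads), followed in peloPB60/1 by mir-303 (1473 and 95). Their median log2 ratio was 0.20, with 4 called higher and 2 lower among 9 past the minimum. Among all 108 hairpins past it, 15.7% were higher and 31.5% lower.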

How the data were processed

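Per the labels' protocols, 18 to 30 nt RNAs were purified from ovary total RNA and made into libraries by Illumina protocols. The deposited values are raw read counts per hairpin or repeat, with no normalization. The submitters' processing notes name Bowtie 0.12.7 and BDGP5, with no role. The sources used here give no miRNA reference, mismatch limit, multiple-match rule or use of strand, so copies and overlapping transcripts may share reads.

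A hairpin missing from 1 table was given 0 counts there. Levels are CPM of the miRNA table, and the piRNA tables served for scaling only. Log2 ratios have 0.5 reads added, and intervals are exact conditional (Clopper-Pearson) ones of the unmodified counts (scipy 1.17.1). edgeR 4.0.16 and DESeq2 1.42.0 gave scaling factors. In simulated Poisson counts with no change, 0 of 108 hairpins with at least 50 summed reads were called, and 22 of 22 changed 3-fold were. Those counts carried counting error alone, as the intervals assume, so they cannot show how often variation between libraries would give a call. Every member with at least 50 summed reads was described, then the 20 next most abundant by counts, and the rest by range. Positions come from the Ensembl annotation of BDGP6, another build, so no coordinates are given. A hairpin spanned an intron when its 2 ends lay within 5 summed bases of the intron's ends. Members and lists were chosen with earlier results of these data known. Sequences were not used here.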

Additional observations from a re-analysis of the deposited data

How the results depend on the processing

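No paired analysis was possible because there is a single library of each genotype. Leaving out a library would leave nothing to compare. In peloPB60/1, 84 members had at least 3 reads and 56 at least 10, and in pelo1/+ 82 and 61. The members' share was 0.0420% in peloPB60/1 and 0.0494% in pelo1/+ of the reads of both tables, 0.260% and 0.232% without mir-989 in the total, and 0.0949% and 0.105% without mir-5613. Their pooled ratio was 0.851 with the total of both tables, 1.12 without mir-989, 0.899 with TMM, 0.883 with median-of-ratios factors, 0.904 without mir-5613 and 0.880 without the 3 most abundant members. Alternatives chosen after seeing the data left out mir-5613 and gave 1.34 with mir-989 out of the total and 1.08 with TMM. mir-989 takes more of the total in peloPB60/1, so dropping it raises every ratio, by 0.57 on the log2 scale. The shift was 0.17 with both tables, 0.25 with TMM and 0.23 with median-of-ratios factors.

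Of the 87 members, 3 were called higher and 8 lower with no count minimum, and 2 and 8 of 79 at 10 reads. At 20 reads 2 and 6 members were called, and 0 and 0 at 200 reads or with a 4-fold rule. With a 1.5-fold rule 3 were called lower, and with mir-989 out of the total 2 were called higher. Of all 235 hairpins, 20 were called higher and 46 lower with no count minimum, and 19 and 46 of 219 at 10 reads. All hairpins had 19 and 43 calls at 20 reads and 14 and 24 at 200 reads. They had 25 and 44 with a 1.5-fold rule and 8 and 11 with a 4-fold rule. Lower calls thus outnumbered higher ones among all hairpins as well. Over all hairpins the split of 17 higher and 34 lower became 23 and 28 with TMM or median-of-ratios factors, 23 and 29 with both tables, and 27 and 24 with mir-989 out of the total. Of 90 single log2 ratios under alternatives, 81 stayed within their interval or kept their call, 8 moved beyond it and 1 newly passed the 2-fold rule. A ratio that stayed could still gain or lose an interval off no difference, as mir-2491 and mir-2495 did. Of the 18 members past the count minimum, 4 had such an interval with the miRNA total and 10 when mir-989 was not counted. The number was 4 with both tables, 6 with TMM and 5 with median-of-ratios factors. The median member had 13 reads in peloPB60/1 and 15 in pelo1/+, so small differences were not detectable at this depth.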
